A study of Mus musculus with 54 samples.

Results

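The data described here are the transcript levels of 8 mouse genes, the inhibitors of matrix metalloproteinases Timp1, Timp2, Timp3 and Timp4, the plasminogen activators Plat and Plau, the urokinase receptor Plaur and the protease inhibitor Serpine2. They were chosen by symbol, and all 8 were listed in each of 4 tables, which hold 26264 genes for cultured fibroblasts and 32534, 34652 and 35003 genes for 3 lung experiments. The series holds 54 RNA sequencing libraries in 17 groups and asks what the branched-chain amino acids leucine, isoleucine and valine (BCAA) do in lung fibrosis. Levels are in TPM, the share of a library's transcripts after scaling by transcript length, so they can be set side by side between genes, and the sequencing depth behind them is unknown.

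The cultures were primary mouse lung fibroblasts from mice of 6 to 8 weeks, in 8 groups of 3 libraries. They were held for 24 h in BCAA-free medium, in that medium with BCAA returned, in that medium with the branched-chain keto acids (BCKA) returned, or in complete medium, and then for 48 h with TGF-β1 (transforming growth factor β1, 20 ng/mL) or with PBS. TGF-β1 turns fibroblasts into matrix-secreting myofibroblasts. The lungs were from male C57BL/6 mice of 10 to 12 weeks in 3 experiments, each with a treated bleomycin group, a bleomycin group and a PBS group. Bleomycin is a drug that injures the lung and is followed by scarring. In the water experiment, 3 mice per group, the groups were BLM_BCAA (1.25 mg/kg bleomycin, with drinking water that held 3 mM BCAA, begun 7 days earlier), BLM_NW (bleomycin alone) and PBS_NW, and lungs were taken on day 14. In the diet experiment, 4 mice per group, the groups were BLM_BCAA_free (1.25 mg/kg bleomycin, a diet without BCAA from day 7 for 14 days), BLM_ND (bleomycin, normal diet) and PBS_ND, and lungs were taken on day 21. In the BT2 experiment, 3 mice per group, the groups were BLM_BT2 (3.5 mg/kg bleomycin and 20 mg/kg per day of BT2, which blocks the kinase of the keto acid dehydrogenase and so favours BCKA oxidation, from day 3 for 11 days), BLM_DMSO (the same bleomycin dose with 10% DMSO) and PBS_DMSO, whose label names PBS without a DMSO injection, and lungs were taken on day 14. Nothing in the sources says whether culture replicates came from separate animals, so p-values there measure the spread between libraries, which may be technical.

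As background, TIMP proteins bind the active site of matrix metalloproteinases and related ADAM and ADAMTS proteases and so slow the breakdown of collagen and other matrix. Timp1 and Timp2 are secreted and soluble, Timp2 also takes part with the membrane protease Mmp14 in activating Mmp2, Timp3 is held in the matrix, and Timp4 is best known from heart, brain and fat. Plat (tissue plasminogen activator) and Plau (urokinase) cut plasminogen into plasmin, which digests fibrin and can activate metalloproteinases. Plaur holds urokinase at the cell surface, and Serpine2 (protease nexin) inhibits thrombin, urokinase and tissue plasminogen activator. In the scarring lung, reduced plasmin activity and high TIMP levels are both known to go with matrix that is not cleared.

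Promoter sequence was matched by symbol for 6 of the 8 genes in RefSeq windows of the GRCm38.p6 build, which run from 250 bases before to 50 bases after the start site. The windows of 4 genes are shown because these genes moved in different directions in the same TGF-β1 treated cells: Timp1 (chrX:20869916-20870215, plus strand), Timp2 (chr11:118355362-118355661, minus strand), Timp3 (chr10:86300162-86300461, plus strand) and Plaur (chr7:24462233-24462532, plus strand). Capitals mark GGGCGG on either strand, the core that SP1-type factors bind, and TGANTCA, the core that AP-1 binds.
Timp1: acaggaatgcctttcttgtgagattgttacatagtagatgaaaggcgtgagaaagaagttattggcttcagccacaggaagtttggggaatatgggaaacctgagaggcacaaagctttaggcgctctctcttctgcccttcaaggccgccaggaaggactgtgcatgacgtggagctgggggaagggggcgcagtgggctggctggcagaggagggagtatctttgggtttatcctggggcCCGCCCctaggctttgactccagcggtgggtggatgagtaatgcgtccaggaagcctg
Timp2: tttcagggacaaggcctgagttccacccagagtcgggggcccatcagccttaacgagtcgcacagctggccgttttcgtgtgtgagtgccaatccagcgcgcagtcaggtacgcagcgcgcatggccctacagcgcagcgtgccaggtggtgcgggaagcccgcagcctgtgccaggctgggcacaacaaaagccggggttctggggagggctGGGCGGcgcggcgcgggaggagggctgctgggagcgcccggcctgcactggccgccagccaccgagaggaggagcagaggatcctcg
Timp3: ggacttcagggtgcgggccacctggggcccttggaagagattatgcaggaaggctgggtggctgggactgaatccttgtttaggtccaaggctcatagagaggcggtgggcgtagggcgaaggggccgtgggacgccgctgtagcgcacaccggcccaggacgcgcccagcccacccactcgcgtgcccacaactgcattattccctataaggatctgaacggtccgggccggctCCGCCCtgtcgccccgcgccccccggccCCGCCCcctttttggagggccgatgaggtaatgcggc
Plaur: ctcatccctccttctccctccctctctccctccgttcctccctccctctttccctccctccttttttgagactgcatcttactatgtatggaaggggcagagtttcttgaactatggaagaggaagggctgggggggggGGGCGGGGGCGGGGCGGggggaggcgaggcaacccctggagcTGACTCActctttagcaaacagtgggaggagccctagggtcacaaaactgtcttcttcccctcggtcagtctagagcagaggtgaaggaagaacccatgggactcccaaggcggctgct
The GGGCGG core stood at position -8 from the start site in Timp1, -37 in Timp2, -15 and 13 in Timp3, and -111, -105 and -100 in Plaur, where the last pair share 1 base. It was present in 35.7% of all 32851 RefSeq windows of the same length. TGANTCA occurred in the Plaur window, as TGACTCA at -69, and in no other of the 6 windows, against 7.81% of all windows. Of the windows not shown, that of Serpine2 held 6 GGGCGG cores and that of Timp4 none. Another core, TGATGNAA, bound by ATF4, a factor of the amino acid stress response, was in none of the 6 windows and in 3.97% of all windows. Only exact matches were counted, so a near match to TGANTCA, such as TGAGTAA in the Timp1 window, is not among them. A match here is a description of letters and not of binding.

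Some libraries and groups stood apart. In cells treated with TGF-β1 in BCAA-free medium, replicate 1 had a summed level of 7 fibroblast markers of 56470 TPM, against 11620 and 15420 TPM in replicates 2 and 3, and each result that rests on this group is given with and without it where it mattered. The cultures carried all 7 fibroblast markers, and their endothelial markers summed to 0.559 to 2.71 TPM. The PBS_ND lungs had lower endothelial markers (137 to 229 TPM) than the other 8 lung groups (565 to 2065 TPM) and lower alveolar type 1 markers (654 to 1103 TPM, against 1703 to 6406 TPM). The median gene was 0.56 log2 higher in BLM_ND than in PBS_ND lungs. In the BLM_BCAA_free group, replicate 3 had the fewest genes above 0 of the diet experiment (17554). The extraction protocol in the labels speaks of heart tissue, while each of these samples is labelled lung and had surfactant and club cell markers.

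Differences below are log2 changes on the log2(TPM + 1) scale, fitted with limma over all genes of a table, and a gene is said to rise or fall where its limma p, adjusted over the genes tested by the Benjamini-Hochberg method, was under 0.05. In fibroblasts 13084 genes passed the filter of 1 TPM in 3 libraries, among them 7 of the 8 members. The exception was Timp4, which ranged from 0.0444 to 1.09 TPM over 21 libraries and was listed at 0 in all 3 libraries of BCAA-free medium with TGF-β1. It was therefore described in lungs only.

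What TGF-β1 does to the 8 genes in complete medium was asked first. All 7 members tested changed, 4 upward and 3 downward, where 48.6% of all genes tested changed. For all 7 the groups did not overlap, which held for 62.8% of genes. Timp1, Timp3, Plaur and Serpine2 rose, while Timp2, Plat and Plau fell. Of the 4 inhibitors tested, 3 rose and Timp2 fell, by about as much as the activators.

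Timp2 was the most abundant member in resting cells. It had 1226, 1139 and 1271 TPM with TGF-β1 in complete medium, against 2789.7, 2749 and 2703 TPM with PBS (-1.18 ± 0.09 log2, SE, limma adjusted p = 6.95e-10). Timp1 had 1149.8, 1744 and 1173 TPM with TGF-β1, against 645, 668 and 687 TPM with PBS (1.00 ± 0.20 log2, adjusted p = 3.25e-04). The groups did not overlap for either gene. Far apart in resting cells, the 2 genes came to similar levels under TGF-β1. Timp3 had 197, 160.4 and 180.0 TPM with TGF-β1, against 64.4, 54.0 and 55.0 TPM with PBS (1.61 ± 0.18 log2, adjusted p = 2.42e-07), and every treated library was above every PBS library.

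Both plasminogen activators were lower in treated cells. Plat had 60.8, 50.9 and 67.8 TPM with TGF-β1, against 145, 135 and 152 TPM with PBS (-1.26 ± 0.11 log2, adjusted p = 2.77e-09). Plau had 16.7, 19.3 and 16.1 TPM, against 36.9, 37.3 and 35.7 TPM (-1.04 ± 0.14 log2, adjusted p = 1.67e-06). Neither gene's groups overlapped, and the ratio of Plat to Plau was 3.49 ± 0.796 with TGF-β1 and 3.94 ± 0.318 with PBS (SD, n = 3 each). The receptor Plaur had 30.5, 32.6 and 31.9 TPM with TGF-β1, against 6.30, 5.50 and 6.14 TPM with PBS, the largest rise of the 7 members in complete medium (2.23 ± 0.13 log2, adjusted p = 4.18e-12). Serpine2 had 64.7, 75.8 and 66.6 TPM, against 45.4, 44.5 and 44.2 TPM (0.61 ± 0.21 log2, adjusted p = 0.022). This last call was lost without TGF-β1 replicate 2 (adjusted p = 0.0767) or without PBS replicate 2 (0.0515) or 3 (0.0529).

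**Figure D1:**
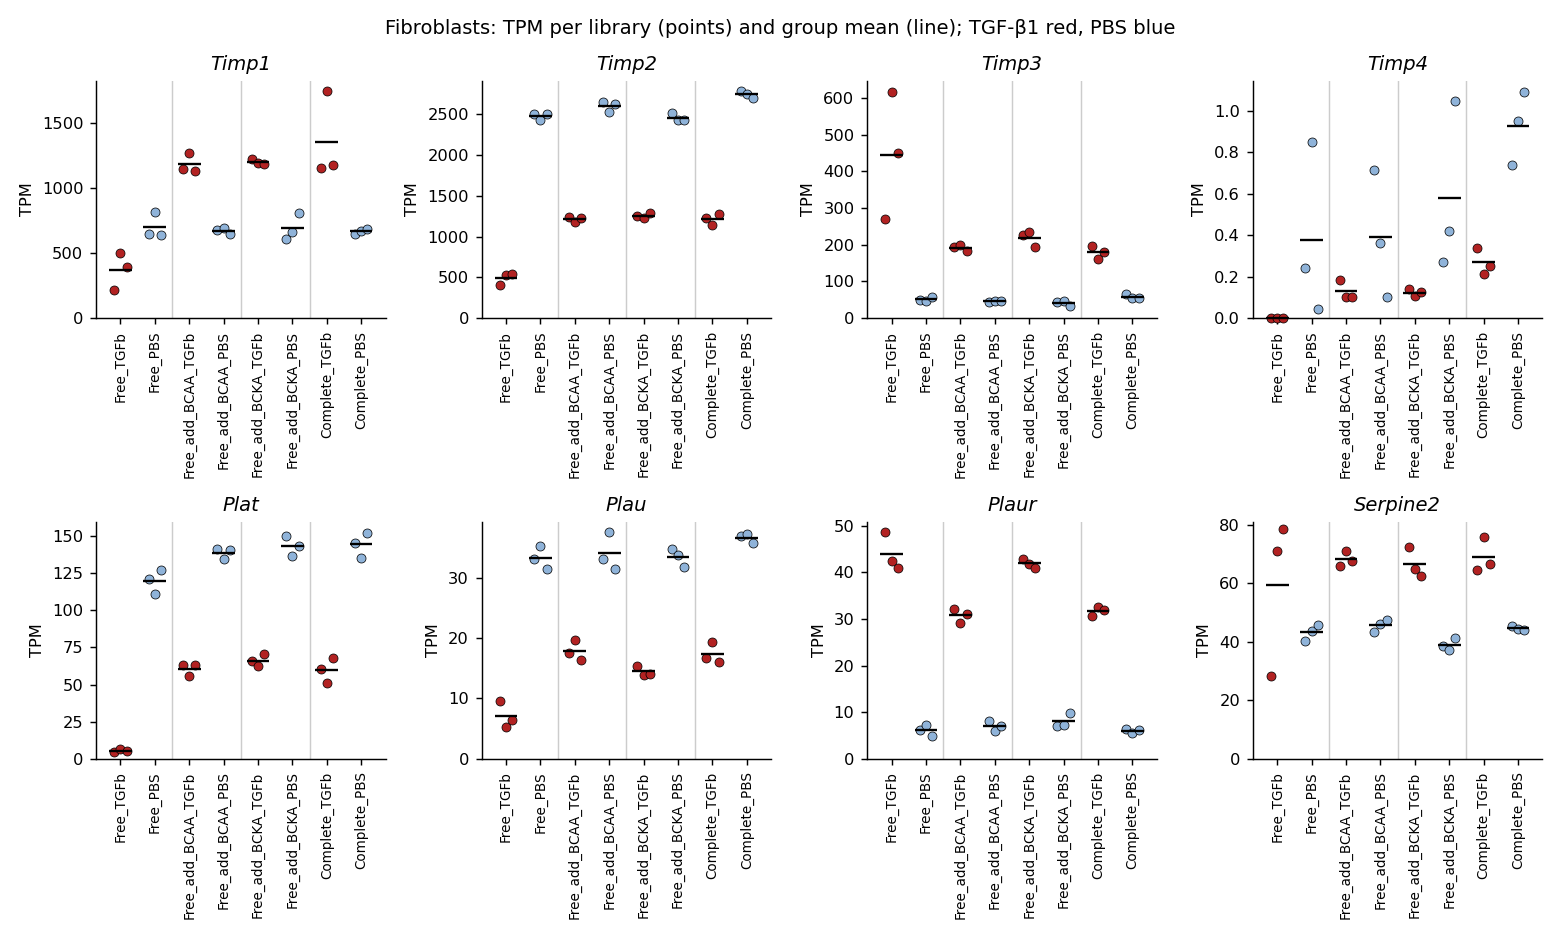
TPM (linear axis from 0) of the 8 genes in the 24 fibroblast libraries, 1 panel per gene; points are libraries, lines are group means, red is TGF-β1 and blue is PBS, in BCAA-free medium (Free), with BCAA or BCKA returned, and in complete medium. Plat sits between 4.74 and 6.60 TPM in BCAA-free medium with TGF-β1 and at 50.9 TPM or more in the other 7 groups, and Timp1 is above its PBS level with TGF-β1 in 3 media and below it in BCAA-free medium.

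The second question is whether BCAA matter to resting cells. None of the 7 members changed in BCAA-free against complete medium with PBS by limma's adjusted p, where 0.910% of genes tested did, and 1 member, Plat, was lower at an unadjusted p under 0.05. Plat had 121, 111 and 127 TPM in BCAA-free medium, against 145, 135 and 152 TPM in complete medium (-0.27 log2, 95% interval -0.50 to -0.04, adjusted p = 0.463). For the other 6 members the fitted difference was between -0.16 and 0.06 log2, and the widest interval of these, that of Serpine2, ran from -0.49 to 0.40 log2. These intervals use the spread of all 8 culture groups. The 2 groups did not overlap for 3 of the 7 members, Plat, Plau and Timp2, each lower in BCAA-free medium. Timp2 had 2503, 2432 and 2509 TPM there, against 2789.7, 2749 and 2703 TPM in complete medium. The share of all genes at that rule is not given for this comparison. Returning BCAA to resting cells changed none of the 7 members (0.260% of genes tested changed, and no member had an unadjusted p under 0.05). Returning BCKA changed none by the adjusted p (0.665% of genes), while Plat (0.26 log2, adjusted p = 0.597) and Plaur (0.35 log2, adjusted p = 0.434) were higher at an unadjusted p under 0.05.

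Under TGF-β1 the same removal of BCAA was followed by changes in 6 of the 7 members, 2 higher and 4 lower than in complete medium with TGF-β1, where 60.3% of genes tested changed. Plat, Timp1, Timp2 and Plau were lower, and Timp3 and Plaur were higher. Against BCAA-free medium with PBS 6 of the 7 changed as well, 2 higher and 4 lower, where 64.1% of genes did. Both shares are large, so the counts alone say little about the members.

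Plat had 4.74, 6.60 and 4.96 TPM in BCAA-free medium with TGF-β1, against 60.8, 50.9 and 67.8 TPM in complete medium with TGF-β1 (-3.24 ± 0.11 log2, adjusted p = 2.43e-16). Within BCAA-free medium its PBS libraries had 121, 111 and 127 TPM (-4.24 ± 0.11 log2 for TGF-β1 over PBS, adjusted p = 5.30e-19). The 3 libraries lay below every other culture library, and the fall was the largest of the 7 members tested in both comparisons. Plau had 9.57, 5.28 and 6.36 TPM in BCAA-free medium with TGF-β1, against 16.7, 19.3 and 16.1 TPM in complete medium with TGF-β1 (-1.22 ± 0.14 log2, adjusted p = 9.37e-08). The ratio of Plat to Plau was 0.842 ± 0.381 in BCAA-free medium with TGF-β1 and between 3.43 and 4.56 on average in the other 7 culture groups.

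Timp1 was the member whose direction under TGF-β1 differed between media. It had 217, 498 and 389 TPM in BCAA-free medium with TGF-β1, against 643, 818 and 638 TPM with PBS (-0.997 ± 0.20 log2, adjusted p = 1.88e-04, and -0.66 log2, adjusted p = 3.93e-04, without replicate 1). All 3 treated libraries were below all 3 PBS libraries, and also below the lowest treated library in complete medium (1149.8 TPM; -1.93 ± 0.20 log2, adjusted p = 3.57e-08). Timp2 had 409, 533 and 539.6 TPM in BCAA-free medium with TGF-β1, against 2503, 2432 and 2509 TPM with PBS (-2.34 ± 0.09 log2, adjusted p = 1.42e-15). Its treated libraries were also below those of complete medium (-1.30 ± 0.09 log2, adjusted p = 8.72e-11).

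Timp3 went the other way. It had 271, 617 and 449 TPM in BCAA-free medium with TGF-β1, against 50.3, 47.7 and 56.3 TPM with PBS (3.01 ± 0.18 log2, adjusted p = 3.20e-12). These 3 libraries were the highest of the culture and lay above the 197, 160.4 and 180.0 TPM of complete medium with TGF-β1 (1.24 ± 0.18 log2, adjusted p = 5.90e-06). Plaur had 48.7, 42.4 and 40.9 TPM in BCAA-free medium with TGF-β1, against 30.5, 32.6 and 31.9 TPM in complete medium with TGF-β1 (0.46 ± 0.13 log2, adjusted p = 0.00455). Serpine2 had 28.4, 71.1 and 78.6 TPM, against 64.7, 75.8 and 66.6 TPM (-0.34 ± 0.21 log2, adjusted p = 0.178). Replicate 1 alone was below the complete medium libraries. Without it the difference was 0.12 log2 (adjusted p = 0.248), and without replicate 2 or 3 it passed (-0.53 and -0.60 log2, adjusted p = 0.0434 and 0.0173). Against BCAA-free medium with PBS, Serpine2 was 0.32 log2 higher (adjusted p = 0.195), or 0.78 log2 (adjusted p = 4.26e-08) without replicate 1.

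The difference between the 2 TGF-β1 responses was itself tested, as the response in BCAA-free medium minus that in complete medium. It passed for 5 of the 7 members, 4 lower and 1 higher, where it passed for 47.6% of all genes. The differences were -2.97 ± 0.15 log2 for Plat (adjusted p = 1.25e-12), -1.99 ± 0.29 log2 for Timp1 (6.77e-06), -1.16 ± 0.13 log2 for Timp2 (3.19e-07), -1.08 ± 0.19 log2 for Plau (8.69e-05) and 1.40 ± 0.26 log2 for Timp3 (1.51e-04), each adjusted by limma. Plaur (0.45 log2, adjusted p = 0.0503) and Serpine2 (-0.29 log2, 95% interval -0.92 to 0.34, adjusted p = 0.451) did not pass. Plaur passed with a filter at 5 TPM (0.0456) and without 1 of 3 libraries: complete medium with PBS replicate 2 (0.0464), BCAA-free medium with PBS replicate 2 (0.0201) or BCAA-free medium with TGF-β1 replicate 3 (0.0448). Without replicate 1 of BCAA-free medium with TGF-β1 the 5 calls held, at -2.90, -1.65, -1.03, -1.30 and 1.72 log2 in the same order.

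**Figure D2:**
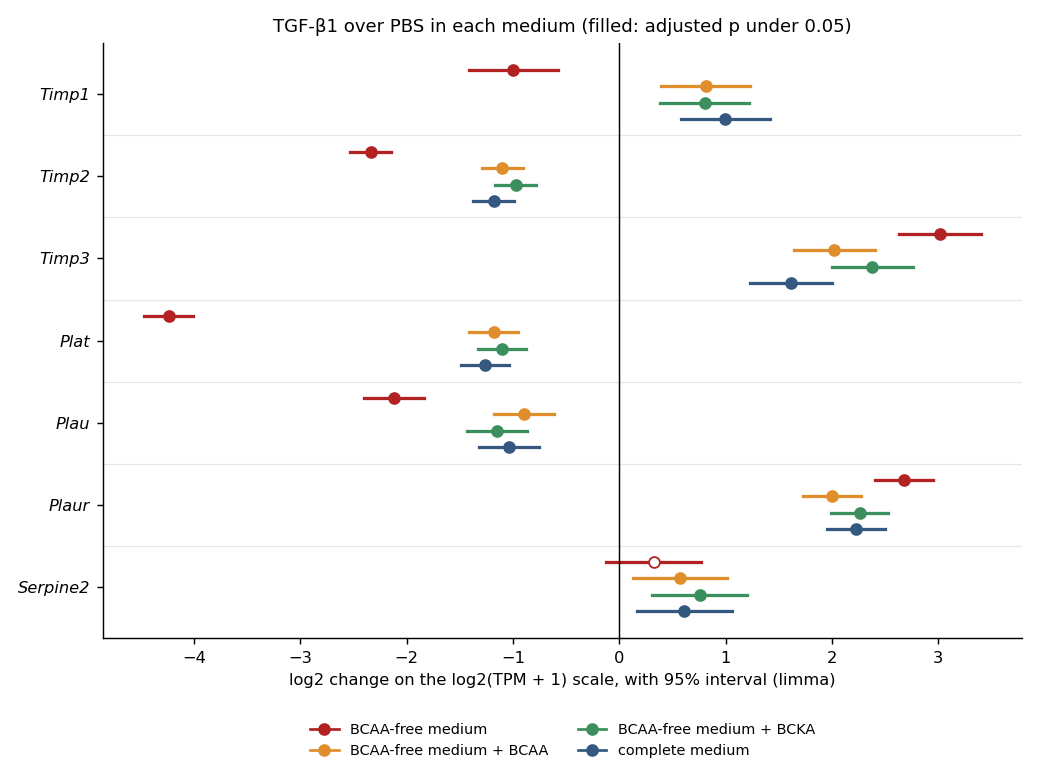
Log2 change of TGF-β1 over PBS (points) with 95% intervals from limma for 7 genes in the 4 media; filled points passed an adjusted p of 0.05. Timp1 lies at -0.997 in BCAA-free medium and between 0.80 and 1.00 in the other media, and Plat at -4.24 against -1.26 to -1.11.

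The add-back groups ask what returning the amino acids or their keto acids does. These comparisons share the BCAA-free TGF-β1 libraries with those above, and opposite signs are then no separate result. With BCAA returned, 6 of 7 members changed against BCAA-free medium under TGF-β1, 4 higher and 2 lower, where 58.3% of genes changed. With BCKA returned, 5 of 7 changed, 4 higher and 1 lower, where 58.4% of genes did. Plat had 63.3, 55.8 and 62.8 TPM with BCAA and 65.6, 62.1 and 70.2 TPM with BCKA, against 4.74, 6.60 and 4.96 TPM without either (3.27 and 3.39 log2, adjusted p = 2.26e-16 and 1.43e-16). Timp1 had 1144, 1265 and 1130.0 TPM with BCAA and 1224, 1192 and 1186 TPM with BCKA, against 217, 498 and 389 TPM without (1.76 and 1.78 log2). In every library with BCAA or BCKA returned, these 2 genes were above every library without. Timp2 (1.31 and 1.35 log2) and Plau (1.26 and 0.97 log2) rose as well, and Timp3 fell (-1.14 and -0.95 log2).

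The add-back groups were also set against complete medium under TGF-β1. These differences do not use the BCAA-free levels, while their intervals use the spread of all 8 culture groups. With BCAA returned, none of the 7 members changed by limma's adjusted p, where 0.0153% of genes did, and none had an unadjusted p under 0.05. The interval of Serpine2 ran from -0.46 to 0.43 log2, that of Timp1 from -0.59 to 0.24 log2, and that of Plat ran from -0.20 to 0.25 log2. With BCKA returned, again none changed by the adjusted p, where 0.611% of genes did. Plaur was the 1 member at an unadjusted p under 0.05. It had 42.9, 41.8 and 41.0 TPM with BCKA, against 30.5, 32.6 and 31.9 TPM in complete medium (0.39 log2, 95% interval 0.12 to 0.67, adjusted p = 0.274). In fits of the compared groups alone the number of members past the threshold was 0 in both comparisons.

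BCKA and BCAA were also compared with each other under TGF-β1. No member differed by the adjusted p, where 0.268% of genes did, and Plaur was the 1 member at an unadjusted p under 0.05 (41.9 ± 0.967 TPM with BCKA and 30.8 ± 1.58 TPM with BCAA, SD, n = 3 each, 0.44 log2, adjusted p = 0.400). The Plaur libraries with BCKA were all above those with BCAA and overlapped those without either (40.9 to 48.7 TPM, -0.06 log2, adjusted p = 0.694). In a fit of these 2 groups alone Plaur passed (adjusted p = 0.0169). The TGF-β1 response in the 2 add-back media held 4 higher and 3 lower members each, where 44.8% (BCAA) and 45.8% (BCKA) of genes changed. Serpine2 was the member nearest the threshold there, at 0.57 log2 with BCAA (adjusted p = 0.0345), a call lost when any 1 of the 6 libraries was left out (0.0606 to 0.0915), and at 0.76 log2 with BCKA (adjusted p = 0.00624). Its SE there again included the spread of BCAA-free medium with TGF-β1 (SD 27.1 TPM).

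Set out by order, neighbours among the 8 culture groups overlapped in 3 of 7 pairs for Timp2. They overlapped in 4 for Plat, Plau and Timp3, and in 5 for Timp1 and Plaur. Among PBS groups, Timp2 stepped down without overlap from complete medium to BCAA returned and then to BCAA-free medium. Plat was also lower in BCAA-free medium than with BCAA returned, while Timp3 was higher there, both without overlap. For Timp2, Plat and Plau the 4 PBS groups were above the 4 TGF-β1 groups, with BCAA-free medium with TGF-β1 at the bottom and no overlap with the next group. For Timp3 and Plaur the 4 TGF-β1 groups were above the 4 PBS groups, with BCAA-free medium on top, and that group overlapped its neighbour for Plaur and not for Timp3. For Timp1, BCAA-free medium with TGF-β1 was below all other groups. For Serpine2 all 7 pairs of neighbours in the order overlapped.

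The make-up of the TIMP transcripts followed from these levels. In resting cells in complete medium Timp2 made up 79.1 ± 0.645% and Timp1 19.2 ± 0.759% of a TIMP total of 3473 TPM. With TGF-β1 in complete medium Timp1 made up 48.9 ± 7.27%, Timp2 44.5 ± 6.14% and Timp3 6.59 ± 1.21% of 2747 TPM. In BCAA-free medium with TGF-β1 the total was 1307 ± 380 TPM, and Timp3 held 33.4 ± 3.71% of it, beside 27.5 ± 3.07% for Timp1 and 39.0 ± 6.66% for Timp2 (SD, n = 3 each). With BCAA or BCKA returned under TGF-β1, Timp3 held 7.41 and 8.18%.

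**Figure D3:**
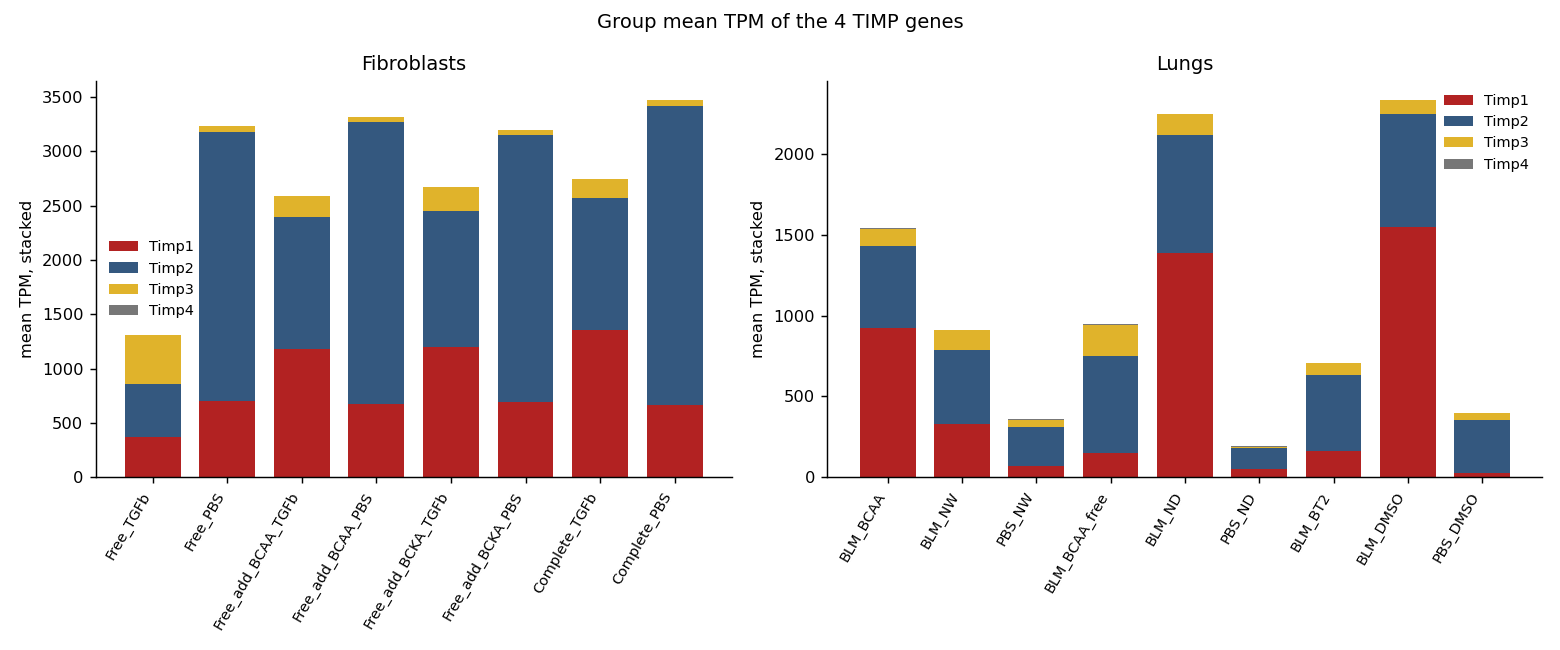
Mean TPM of Timp1, Timp2, Timp3 and Timp4, stacked from 0, in the 8 culture groups and the 9 lung groups (3 libraries each, 4 in the diet experiment; no error is drawn). In BCAA-free medium with TGF-β1 the total is 1307 TPM with the largest Timp3 part of the culture groups, and in lungs the Timp1 part is larger in BLM_BCAA, BLM_ND and BLM_DMSO than in the other 6 groups.

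Genes that work with the members were counted in 2 lists. Of the 16 genes of the plasmin system (plasminogen, its receptors and inhibitors, and linked coagulation genes), 11 were tested in fibroblasts. With TGF-β1 in complete medium 6 rose and 1 fell, where 48.6% of all genes changed (median 0.35 log2, all genes -0.20 log2). The coagulation starter F3, tissue factor, rose (728 ± 85.0 TPM with TGF-β1 and 209.8 ± 4.11 TPM with PBS, 1.78 log2), as did the thrombin receptor F2r (1.41 log2), and thrombomodulin, Thbd, fell (-1.63 log2). In BCAA-free against complete medium under TGF-β1, 4 rose and 7 fell, where 60.3% of all genes changed (median -0.65 log2, all genes 0.10 log2). F3 was at 99.4 ± 31.1 TPM in BCAA-free medium, against 728 ± 85.0 TPM in complete medium (-2.91 log2, adjusted p = 4.18e-13). Within BCAA-free medium F3 fell with TGF-β1 (99.4 ± 31.1 TPM with TGF-β1 and 247 ± 8.79 TPM with PBS, -1.36 log2, adjusted p = 8.03e-08). Against complete medium under TGF-β1, the plasminogen receptor subunit S100a10 was lower too (-1.18 log2).

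Of 20 genes for metalloproteinases that TIMPs bind and for the membrane inhibitor Reck, 19 were tested. With TGF-β1 in complete medium 3 rose and 10 fell, where 48.6% of all genes changed (median -0.41 log2, all genes -0.20 log2). Mmp15, a membrane metalloproteinase, fell (0.420 ± 0.0537 TPM with TGF-β1 and 10.8 ± 1.54 TPM with PBS), and Mmp10, stromelysin 2, rose (1.42 log2). In BCAA-free against complete medium under TGF-β1, 4 rose and 10 fell, where 60.3% of all genes changed (median -0.32 log2, all genes 0.10 log2). Mmp11 had 300.2 ± 1.11 TPM in BCAA-free medium and 43.0 ± 1.62 TPM in complete medium (2.77 log2, adjusted p = 2.51e-17). Adamts1 (-3.04 log2) and Mmp23 (-2.82 log2) fell.

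The lung experiments ask how bleomycin moves these genes and whether treatment alters that. In whole lung a change can come from fewer cells of a type or from less RNA per cell, and the 2 cannot be told apart. All 8 members were tested in each experiment. After 14 days at the lower dose (BLM_NW against PBS_NW) 7 of 8 changed, 5 higher and 2 lower, where 21.9% of genes tested changed. After 21 days (BLM_ND against PBS_ND) all 8 changed, 7 higher and 1 lower, where 60.9% of genes did. At the higher dose (BLM_DMSO against PBS_DMSO) 4 of 8 changed, all higher, where 30.6% of genes changed and 17.3% rose. By the labels only BLM_DMSO lungs had DMSO injections, so the parts of bleomycin and DMSO in this comparison cannot be told apart. Timp1, Timp2 and Serpine2 rose in all 3 experiments.

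Timp1 had 287, 358 and 334 TPM in BLM_NW lungs, against 34.7, 31.6 and 146 TPM in PBS_NW lungs (2.55 ± 0.45 log2, adjusted p = 0.00284, and 3.26 log2, adjusted p = 1.30e-05, without PBS_NW replicate 3). It had 1827, 1085, 1736 and 898 TPM in BLM_ND lungs, against 49.2, 42.2, 63.5 and 49.1 TPM in PBS_ND lungs (4.69 ± 0.26 log2, adjusted p = 3.01e-08). It had 1861, 1897 and 880.0 TPM in BLM_DMSO lungs, against 21.5, 29.4 and 27.6 TPM in PBS_DMSO lungs (5.76 ± 0.43 log2, adjusted p = 6.52e-05). In all 3 experiments every bleomycin lung was above every PBS lung, and the rise was the largest of the 8 members.

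Serpine2 had 139, 141 and 111 TPM in BLM_NW lungs, against 39.8, 50.1 and 52.7 TPM in PBS_NW lungs (1.44 ± 0.15 log2, adjusted p = 1.31e-04). The rise was 2.81 ± 0.19 log2 in the diet experiment (324 ± 62.0 TPM in BLM_ND and 44.8 ± 3.31 TPM in PBS_ND, n = 4 each, adjusted p = 1.02e-07) and 2.25 ± 0.24 log2 in the BT2 experiment (248 ± 38.4 TPM in BLM_DMSO and 50.8 ± 1.75 TPM in PBS_DMSO, n = 3 each, adjusted p = 3.01e-04). Again no bleomycin lung overlapped a PBS lung, and the PBS levels of the 3 experiments lay close together. Timp2 rose by 0.93 log2 (460.2 ± 44.1 TPM in BLM_NW and 242 ± 39.0 TPM in PBS_NW), 2.51 log2 (735 ± 27.9 TPM in BLM_ND and 129 ± 15.5 TPM in PBS_ND) and 1.10 log2 (702 ± 120.3 TPM in BLM_DMSO and 326 ± 43.3 TPM in PBS_DMSO).

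Timp3 rose in the first 2 experiments, to 163, 107 and 97.9 TPM in BLM_NW, against 36.9, 43.4 and 46.6 TPM in PBS_NW (1.48 log2, adjusted p = 0.0011), and by 3.63 log2 in the diet experiment. In the BT2 experiment it was split, with 40.1, 182 and 34.0 TPM in BLM_DMSO, against 39.3, 52.8 and 39.4 TPM in PBS_DMSO (adjusted p = 0.495), so that replicate 2 alone stood above all 3 PBS lungs. Plat was split in the same group but in another replicate, with 86.9, 84.0 and 23.4 TPM in BLM_DMSO, against 26.7, 34.5 and 27.1 TPM in PBS_DMSO (0.91 log2, adjusted p = 0.139, and 1.52 log2, adjusted p = 0.00163, without replicate 3). Plat rose in the water experiment (41.0 ± 5.18 TPM in BLM_NW and 24.7 ± 1.06 TPM in PBS_NW, 0.70 log2, adjusted p = 0.00572). It also rose in the diet experiment (72.1 ± 19.0 TPM in BLM_ND and 4.03 ± 1.40 TPM in PBS_ND, 3.86 log2). Plau rose in the diet (2.50 log2) and BT2 experiments (1.36 log2, adjusted p = 0.0049) but not in the water experiment (0.18 log2, adjusted p = 0.702).

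Plaur changed in opposite directions. It had 74.0, 60.1 and 77.6 TPM in BLM_NW lungs, against 98.8, 146 and 121 TPM in PBS_NW lungs (-0.77 ± 0.17 log2, adjusted p = 0.00878). It had 173, 182, 160.1 and 109.9 TPM in BLM_ND lungs, against 27.3, 23.8, 36.4 and 12.0 TPM in PBS_ND lungs (2.67 ± 0.43 log2, adjusted p = 1.58e-04). The groups did not overlap in either experiment, and the PBS_ND lungs were below every other lung of the series. In the BT2 experiment Plaur did not pass (-0.19 log2, adjusted p = 0.521). Summed neutrophil markers were 37.0 to 2540 TPM in BLM_NW and 1214 to 3873 TPM in PBS_NW lungs. They were 252 to 1473 TPM in BLM_ND and 26.8 to 38.6 TPM in PBS_ND lungs, and 829 to 5675 TPM in BLM_DMSO and 155 to 1046 TPM in PBS_DMSO lungs. The part of these markers in the Plaur results was not tested.

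Timp4 was the scarce member. It had 1.71, 1.43 and 1.48 TPM in BLM_NW lungs, against 3.10, 3.25 and 2.67 TPM in PBS_NW lungs (-0.66 log2, adjusted p = 0.0326), a call lost when any 1 of the 6 libraries was left out (0.0553 to 0.101). It fell more clearly in the diet experiment (1.43 ± 0.498 TPM in BLM_ND and 6.48 ± 1.70 TPM in PBS_ND, -1.62 ± 0.26 log2, adjusted p = 1.45e-04). In the BT2 experiment Timp4 did not pass and the groups overlapped (1.17 to 4.08 TPM in BLM_DMSO and 2.16 to 5.17 TPM in PBS_DMSO). Summed heart muscle markers were 79.1 to 178 TPM in BLM_NW and 163 to 288 TPM in PBS_NW lungs. They were 42.4 to 83.7 TPM in BLM_ND and 803 to 1766 TPM in PBS_ND lungs, and 80.3 to 96.5 TPM in BLM_DMSO and 549.5 to 1421 TPM in PBS_DMSO lungs. Summed adipocyte markers were 11.1 to 34.5 TPM in BLM_NW and 52.4 to 72.0 TPM in PBS_NW lungs, and overlapped between bleomycin and PBS lungs in the diet and BT2 experiments. The part of these markers in the Timp4 results was not tested. Exons of Timp4 overlap those of Syn2 on the other strand, and as no strand setting is given, reads of the 2 genes cannot be told apart. Syn2 differed in the other direction, with a mean of 5.13 TPM in BLM_NW and 1.37 TPM in PBS_NW lungs, and of 4.17 TPM in BLM_ND and 0.803 TPM in PBS_ND lungs. Timp3 likewise overlaps Syn3, which reached at most 0.764 TPM in any library.

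The rises in the diet experiment stand beside the composition of its PBS_ND lungs given above. With all libraries set to the same median gene, all 8 members still changed in that experiment, from -2.18 log2 for Timp4 to 4.12 log2 for Timp1. Fibroblast and macrophage markers were also higher with bleomycin, fibroblast markers at 707 to 969 TPM in BLM_NW and 227 to 358 TPM in PBS_NW lungs, at 2110 to 2853 TPM in BLM_ND and 202 to 302 TPM in PBS_ND lungs, and at 1956 to 2475 TPM in BLM_DMSO and 317 to 331 TPM in PBS_DMSO lungs. In the cultures the fibroblast sum was also higher with TGF-β1 (38810 to 43390 TPM, against 14070 to 15080 TPM with PBS, both in complete medium). The part of these markers in the rises was not tested.

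**Figure D4:**
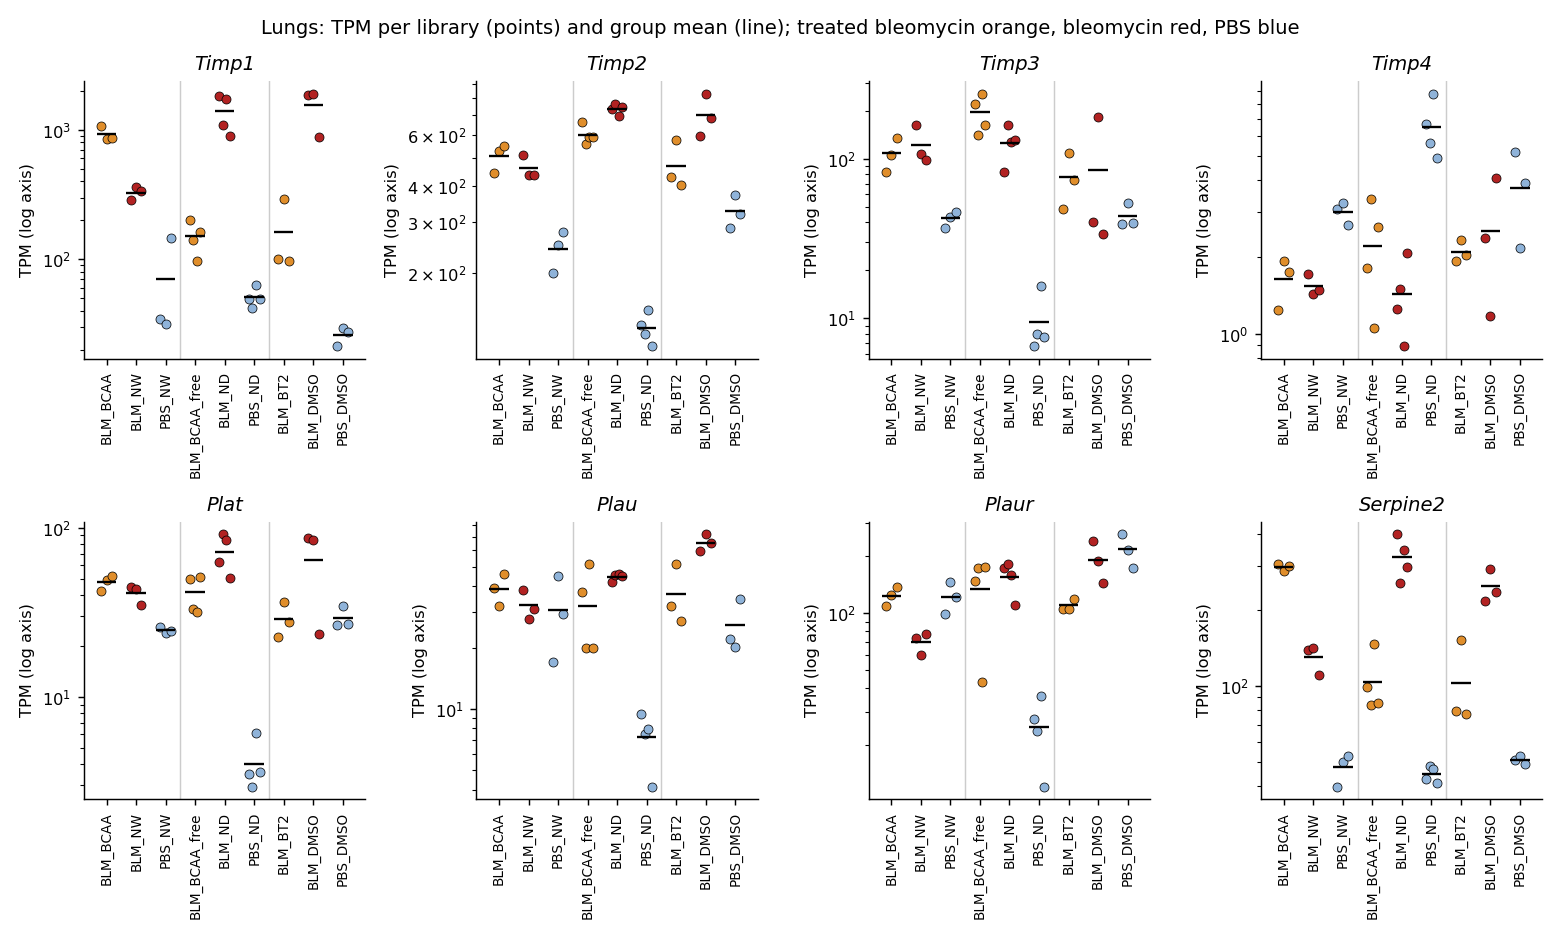
TPM (log axis) of the 8 genes in the 30 lung libraries, 1 panel per gene; points are libraries and lines are group means, with the treated bleomycin group in orange, bleomycin in red and PBS in blue for each of the 3 experiments. Timp1 and Serpine2 show 3 separate levels in each experiment, higher in BLM_BCAA than in BLM_NW and lower in BLM_BCAA_free than in BLM_ND and in BLM_BT2 than in BLM_DMSO.

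Each experiment then asks whether a treatment shifts the bleomycin lung. Timp1 and Serpine2 had the largest differences of the 8 members in all 3, higher with added BCAA and lower without dietary BCAA or with BT2. With BCAA in water, 1 of 8 members changed, where 1.20% of genes tested changed. By an unadjusted limma p under 0.05, 3 members differed, and the share of all genes at that rule was not computed. With the BCAA-free diet 2 of 8 changed, both lower, where 10.1% of genes changed and 6.12% fell. With BT2 3 of 8 changed, all lower, where 11.8% of genes changed and 5.41% fell. Groups did not overlap for 3, 3 and 5 of the 8 members in these experiments, against 20.4, 19.2 and 31.5% of genes.

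With BCAA in water, Serpine2 had 305, 285 and 298 TPM in BLM_BCAA lungs, against 139, 141 and 111 TPM in BLM_NW lungs (1.19 ± 0.15 log2, adjusted p = 0.00966). The groups were far apart, but the call was lost without BLM_NW replicate 3 (1.07 log2, adjusted p = 0.0568). Timp1 had 1064, 855 and 855 TPM in BLM_BCAA lungs, against 287, 358 and 334 TPM in BLM_NW lungs (1.50 ± 0.45 log2, 95% interval 0.50 to 2.49). It did not pass over all genes (adjusted p = 0.133), although its groups did not overlap, and in a fit without the PBS_NW lungs, whose replicate 3 had 146 TPM, it did (adjusted p = 0.0365). Plaur had 109, 125 and 137 TPM, against 74.0, 60.1 and 77.6 TPM (0.80 log2, adjusted p = 0.0503), and its BLM_BCAA range lay within the PBS_NW range of 98.8 to 146 TPM. Timp2, Timp3, Timp4, Plat and Plau differed by -0.17 to 0.26 log2 and overlapped between the groups. Against PBS_NW lungs 6 of 8 members changed in BLM_BCAA lungs, 5 higher and 1 lower, where 33.8% of genes did. Timp1 was 4.05 log2 higher there (4.75 log2 without PBS_NW replicate 3) and Serpine2 2.62 log2 higher, and the call of Timp4 (-0.61 log2, adjusted p = 0.0321) was lost without any 1 PBS_NW lung or BLM_BCAA replicate 1 or 3 (0.0554 to 0.102).

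With the BCAA-free diet, Timp1 had 202, 141, 97.6 and 162 TPM in BLM_BCAA_free lungs, against 1827, 1085, 1736 and 898 TPM in BLM_ND lungs (-3.18 ± 0.26 log2, adjusted p = 6.82e-05). Serpine2 had 98.6, 84.0, 146 and 85.9 TPM, against 399, 256, 346 and 295 TPM (-1.65 ± 0.19 log2, adjusted p = 2.81e-04). For both genes every treated lung was below every untreated one and above every PBS_ND lung (1.51 log2 for Timp1 and 1.16 log2 for Serpine2 over PBS_ND, and 0.72 log2 for Serpine2 after median centring). Against PBS_ND all 8 members still changed, 7 higher and 1 lower, where 54.8% of genes did.

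Of the other TIMPs none passed. Timp2 had 665, 556, 587 and 589 TPM in BLM_BCAA_free lungs, against 735, 762, 696 and 745 TPM in BLM_ND lungs (-0.30 log2, adjusted p = 0.143). Timp3 had 221, 142, 256 and 164 TPM, against 83.2, 163, 128 and 131 TPM (0.63 log2, 95% interval 0.02 to 1.23, adjusted p = 0.182). The groups did not overlap for Timp2, which was lower in every BLM_BCAA_free lung, and overlapped for Timp3. Whether their differences differ from that of Timp1 was not tested. Plat (41.4 ± 10.5 TPM in BLM_BCAA_free and 72.1 ± 19.0 TPM in BLM_ND, -0.78 log2) had an adjusted p of 0.062, which became 0.0375 without BLM_ND replicate 4. Plau (-0.57 log2, adjusted p = 0.254) passed without BLM_BCAA_free replicate 3 (-0.83 log2, adjusted p = 0.0419), in which Plaur was 43.2 TPM against 147 to 176 TPM in the other 3 lungs.

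With BT2, Timp1 had 101, 289.9 and 96.4 TPM in BLM_BT2 lungs, against 1861, 1897 and 880.0 TPM in BLM_DMSO lungs (-3.36 ± 0.43 log2, adjusted p = 0.00553). Serpine2 had 79.6, 151 and 77.1 TPM, against 218, 291 and 235 TPM (-1.32 ± 0.24 log2, adjusted p = 0.0153), a call lost without BT2 replicate 1 (0.0595) or 3 (0.0750). Plaur had 105, 106 and 119 TPM, against 241, 189 and 145 TPM (-0.77 ± 0.21 log2, adjusted p = 0.0443), a call lost without any 1 BT2 lung (0.0964 to 0.124) or without BLM_DMSO replicate 1 (0.106). No group of these 3 genes overlapped its counterpart, and for Timp1 and Serpine2 BT2 replicate 2 was the highest of the treated lungs. Plau (36.8 ± 13.0 TPM in BLM_BT2 and 65.6 ± 6.32 TPM in BLM_DMSO, -0.87 log2, adjusted p = 0.0588) and Timp2 (468 ± 93.3 TPM in BLM_BT2 and 702 ± 120.3 TPM in BLM_DMSO, -0.59 log2, adjusted p = 0.0761) did not pass, although their groups did not overlap either.

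Plat had 22.6, 36.2 and 27.6 TPM in BLM_BT2 lungs, close to the PBS_DMSO lungs and to BLM_DMSO replicate 3, and below BLM_DMSO replicates 1 and 2 (-0.95 log2, adjusted p = 0.158, and -1.56 log2, adjusted p = 0.00483, without BLM_DMSO replicate 3). Timp3 (0.20 log2) changed sign when replicate 1 or 3 of BLM_DMSO or replicate 2 of BLM_BT2 was left out, and passed without BLM_DMSO replicate 2 (0.96 log2, adjusted p = 0.0442). Against PBS_DMSO 2 of 8 members changed in BLM_BT2 lungs, where 5.30% of genes did. Timp1 was higher (2.40 ± 0.43 log2, adjusted p = 0.0153, lost at 0.0640 and 0.0599 without PBS_DMSO replicate 1 or 3). Plaur was lower (109.7 ± 7.62 TPM in BLM_BT2 and 217 ± 44.0 TPM in PBS_DMSO, -0.96 ± 0.21 log2, adjusted p = 0.0299, lost without any 1 of the 6 libraries at 0.0572 to 0.127). Serpine2 (0.93 log2, adjusted p = 0.0586) did not pass.

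**Figure D5:**
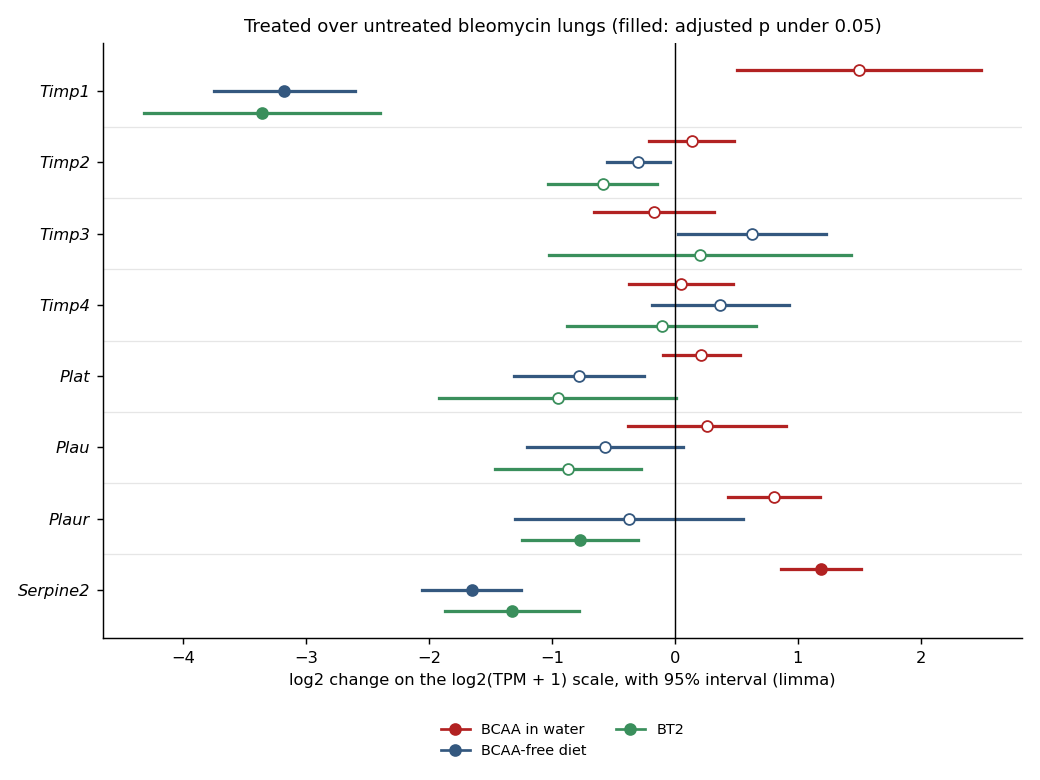
Log2 change of the treated over the untreated bleomycin lungs (points) with 95% intervals from limma for the 8 genes in the 3 experiments; filled points passed an adjusted p of 0.05. Timp1 lies at 1.50 (water), -3.18 (diet) and -3.36 (BT2), and Serpine2 at 1.19, -1.65 and -1.32.

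Cell type markers moved with these treatments. The fibroblast list also moves within fibroblasts: in complete medium it summed to 38810 to 43390 TPM with TGF-β1 and 14070 to 15080 TPM with PBS. Its sum can therefore change without a change in the number of fibroblasts. Of 14 marker lists, 5 had summed levels that did not overlap between treated and untreated bleomycin lungs in all 3 experiments: fibroblast, macrophage and mesothelial markers in the direction of Timp1, and alveolar type 2 and heart muscle markers in the other. Summed fibroblast markers were 1515 to 2147 TPM in BLM_BCAA lungs, against 707 to 969 TPM in BLM_NW lungs, 807 to 1342 TPM in BLM_BCAA_free lungs, against 2110 to 2853 TPM in BLM_ND lungs, and 554 to 1443 TPM in BLM_BT2 lungs, against 1956 to 2475 TPM in BLM_DMSO lungs. Summed macrophage markers were 465 to 674 TPM in BLM_BCAA and 273 to 392 TPM in BLM_NW lungs, 350 to 459 TPM in BLM_BCAA_free and 552 to 658 TPM in BLM_ND lungs, and 408 to 603 TPM in BLM_BT2 and 885 to 1009 TPM in BLM_DMSO lungs. Summed mesothelial markers were 419 to 679 TPM in BLM_BCAA and 248 to 383 TPM in BLM_NW lungs, 71.7 to 176 TPM in BLM_BCAA_free and 237 to 483 TPM in BLM_ND lungs, and 74.8 to 89.6 TPM in BLM_BT2 and 152 to 223 TPM in BLM_DMSO lungs. Alveolar type 2 markers summed to 27640 to 33250 TPM in BLM_BCAA and 33900 to 47570 TPM in BLM_NW lungs, 39230 to 58260 TPM in BLM_BCAA_free and 18710 to 26320 TPM in BLM_ND lungs, and 42810 to 75290 TPM in BLM_BT2 and 2257 to 15280 TPM in BLM_DMSO lungs. Heart muscle markers summed to 41.9 to 56.7 TPM in BLM_BCAA and 79.1 to 178 TPM in BLM_NW lungs, 223 to 503 TPM in BLM_BCAA_free and 42.4 to 83.7 TPM in BLM_ND lungs, and 191 to 291 TPM in BLM_BT2 and 80.3 to 96.5 TPM in BLM_DMSO lungs. Of these 5 lists, the heart muscle gene Nppa was the 1 marker listed at 0 in every library of a lung group (BLM_DMSO), and their part in the Timp1 and Serpine2 results was not tested.

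Timp1 held a large share of the TIMP transcripts where it was high. It made up 59.9 ± 6.06% of a TIMP total of 1541 TPM in BLM_BCAA lungs, against 36.0 ± 5.39% of 911.0 TPM in BLM_NW lungs. It made up 15.8 ± 3.72% of 947 TPM in BLM_BCAA_free lungs, against 60.3 ± 9.44% of 2249 TPM in BLM_ND lungs. With BT2 the share was 21.3 ± 7.29% of 709 TPM, against 64.9 ± 9.81% of 2336 TPM in BLM_DMSO lungs (SD, n = 3, or 4 in the diet experiment). In BLM_BCAA_free and BLM_BT2 lungs Timp2 was the most abundant TIMP, at 63.4 ± 2.20% and 67.6 ± 7.76%. It was so too in BLM_NW lungs (50.45 ± 2.41%) and in PBS_NW, PBS_ND and PBS_DMSO lungs (69.2, 65.9 and 81.6%).

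Of the 19 TIMP-bound proteases and Reck tested, 11 rose and none fell in BLM_NW lungs, where 21.9% of all genes changed (median 0.76 log2, all genes 0.09 log2). In BLM_ND lungs 16 rose and 1 fell, where 60.9% of genes changed (median 2.42 log2, all genes 0.56 log2). In BLM_DMSO lungs 13 rose and 2 fell, where 30.6% of genes changed (median 1.69 log2, all genes -0.02 log2). The macrophage elastase Mmp12 rose in each (126 ± 75.1 TPM in BLM_NW and 1.34 ± 0.373 TPM in PBS_NW, 5.63 log2). With treatment, 2 rose and 1 fell in BLM_BCAA (1.20% of genes changed), 2 rose and 6 fell in BLM_BCAA_free (10.1%), and 1 rose and 6 fell in BLM_BT2 lungs (11.8%). Mmp10 was higher in BLM_BCAA (5.87 ± 1.26 TPM, against 1.73 ± 0.419 TPM in BLM_NW, 1.33 log2). It was lower in BLM_BCAA_free (0.445 ± 0.300 TPM, against 5.96 ± 1.63 TPM in BLM_ND, -2.26 log2) and in BLM_BT2 lungs (1.45 ± 1.71 TPM, against 19.6 ± 3.04 TPM in BLM_DMSO, -3.29 log2). Mmp14, the membrane protease that works with Timp2, was higher in BLM_BCAA lungs (207.8 ± 22.2 TPM, against 114 ± 9.45 TPM in BLM_NW, 0.86 log2).

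Of the plasmin system, 4 of 12 tested rose and 2 fell in BLM_NW lungs, where 21.9% of all genes changed (median 0.26 log2, all genes 0.09 log2). In BLM_ND lungs 11 of 13 rose and none fell, where 60.9% of genes changed (median 1.86 log2, all genes 0.56 log2). In BLM_DMSO lungs 7 of 13 rose and 4 fell, where 30.6% of genes changed (median 0.66 log2, all genes -0.02 log2). In the water experiment none passed with added BCAA by limma, where 1.20% of all genes did. At a limma p under 0.05 without adjustment 5 were higher and 1 lower, a rule for which no share of all genes was computed. F3 fell with bleomycin in BLM_NW lungs (167 ± 42.4 TPM in BLM_NW and 719.8 ± 124 TPM in PBS_NW, -2.12 log2). With the BCAA-free diet 3 of 13 fell, where 10.1% of genes changed and 6.12% fell. They were the collagen receptor Mrc2, a partner of the urokinase receptor (-0.81 log2), S100a10 (-0.65 log2) and the tissue factor inhibitor Tfpi (-0.47 log2). With BT2 1 of 13 rose and 3 fell, where 11.8% of genes changed and 5.41% fell. S100a10 was among those that fell (318 ± 21.4 TPM in BLM_BT2 and 833 ± 344 TPM in BLM_DMSO, -1.31 log2).

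With Pearson's r of log2(TPM + 1) as the measure of likeness, the genes most like each member were named among those of at least 5 TPM. Over the 8 fibroblast group means (10988 candidates) Plat was most like Cpq, Apbb1 and Pcx (r of 0.998 to 0.999), Timp1 like Capzb, Msmo1 and Praf2 (0.996 to 0.998), and Timp3 like Pmepa1, a TGF-β1 target, Idh3a and Hmcn2 (0.994 to 0.998). Serpine2 was most like Fbln5, Col1a1 and Sec13 (0.992 to 0.995). High values are common with 8 points and this many candidates. Over the 30 lung libraries, taken relative to each experiment's mean (12639 candidates), Timp1 was most like Adam12, Serpinb9b and Fbln2 (0.963 to 0.967). Serpine2 there was most like Adamts12, Pmepa1 and Megf10 (0.979 to 0.982). Among the members themselves Timp1 and Serpine2 had an r of 0.948 over the lungs and of 0.611 over the culture means, while Timp2 and Plau had 0.896 and 0.992. The lung points share their experiments, groups and cell make-up, so these are descriptions.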

How the data were processed

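The 54 mouse samples gave 1 poly(A) RNA library each, in 17 groups that were read from the labels. The deposited values are TPM, which the authors computed from reads. In 4 tables each column is scaled to the same total. Per the submitters' processing notes the authors used mm39 as genome build and, with no versions, roles or order given, DESeq2, featureCounts, Subread, HISAT2, Trim Galore and FastQC. Annotation and strand setting are not given in the sources used here. TPM keeps no read counts: depth and counting error are unknown, so the text gives no counting intervals.

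Repeated symbols were summed and rows lacking a symbol dropped. A gene was tested where at least 3 libraries of its table had 1 TPM or more, which left 13084 genes for the fibroblasts and 17209 (water), 18593 (diet) and 18151 (BT2) for the lungs. The values were fitted as log2(TPM + 1) with limma 3.58.1 in R 4.3.3, as group means with a trended variance. All groups of a table entered 1 fit. Tests were two-sided, with p-values adjusted by the Benjamini-Hochberg method over every gene tested, for 14 fibroblast and 9 lung comparisons. Every adjusted p in the text is from limma. The share of all genes at an unadjusted p under 0.05 was not computed, so counts of members by that rule stand without one. The fit was tested on simulated data. Each table was tested alone, since the experiments are separate labelled batches.

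All 8 members are named. Of the linked lists, the 3 genes with the largest change among passing genes of at least 5 TPM could be named, and part of these is given. The members, lists and markers were chosen with earlier results of these data known. Promoter windows are from RefSeq (GRCm38.p6), another build than that of the authors, and gene overlaps are from a GENCODE mouse annotation. Figures were drawn with matplotlib 3.10.9. Results were recomputed with pseudocounts of 0.1 and 0.5, without the filter, with a filter at 5 TPM, after median centring, with the 2 compared groups alone, with replicate number as a block, and without each library in turn.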

Additional observations from a re-analysis of the deposited data

Results flagged for a closer look

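In the diet experiment Timp3 had 15.9 TPM in PBS_ND replicate 3, against 6.71 to 7.97 TPM in the other 3 PBS_ND lungs, a gap that is large for 4 libraries. It was the 1 such library among the 24 sets of 4 values checked, where chance gives about 1 in 20.

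The TGF-β1 response differed between BCAA-free and complete medium for 5 members by the limma test of the difference itself (BCAA-free minus complete): Plat at -2.97 log2, Timp1 at -1.99 log2, Timp2 at -1.16 log2, Plau at -1.08 log2 and Timp3 at 1.40 log2. All 5 also passed without replicate 1 of BCAA-free medium with TGF-β1, whose summed fibroblast markers stood apart.

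Plaur fell with bleomycin in the water experiment (-0.77 log2, BLM_NW over PBS_NW) and rose in the diet experiment (2.67 log2, BLM_ND over PBS_ND). The difference between the experiments was not tested. They differ in day of collection, in labelled batch and in the cell type markers of their PBS lungs, and these cannot be told apart. Neutrophil markers, for example, summed to 1214 to 3873 TPM in PBS_NW and 26.8 to 38.6 TPM in PBS_ND lungs.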

How the results depend on the processing

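The number of members that passed was within 1.5 times the main number under every alternative but those that follow. For BCKA over BCAA add-back with TGF-β1 it was 1 instead of 0 with the compared groups alone. For BLM_BCAA over BLM_NW it was 2 instead of 1 with a filter at 5 TPM, with median centring and with the compared groups alone, and 0 to 1 with 1 library left out. For BLM_BT2 over BLM_DMSO it was 5 instead of 3 with centring, 1 with the compared groups alone and 1 to 4 with 1 library left out. For BLM_BT2 over PBS_DMSO it was 0 instead of 2 without the filter and 0 to 1 with 1 library left out. With 1 library left out, Serpine2 ran from -0.60 to 0.12 log2 (BCAA-free over complete medium, TGF-β1), from -0.13 to 0.59 log2 (BCAA add-back over BCAA-free) and from -0.17 to 0.55 log2 (BCKA add-back over BCAA-free), and Timp3 from -0.23 to 0.96 log2 (BLM_BT2 over BLM_DMSO). The cause was not tested. Uncalled members with small differences changed sign with centring: Plaur to 0.03 log2 for BCKA add-back over BCAA-free medium with TGF-β1, Timp2 to -0.02 log2 for BCAA add-back over complete medium with TGF-β1, Plau to -0.03 log2 for BCKA add-back over BCAA-free medium with PBS and Plaur to -0.07 log2 for BLM_BCAA over PBS_NW.

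Over all genes, the count called was 119 for BCAA-free over complete medium with PBS (40 with a pseudocount of 0.1), 7895 for the same with TGF-β1 (4795 with the compared groups alone), 207 for BLM_BCAA over BLM_NW (14 to 591 with 1 library left out) and 2133 for BLM_BT2 over BLM_DMSO (138 to 4989). For BLM_BCAA_free over BLM_ND it was 1885 (908 to 2785).

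Centring moved the median gene by up to -0.56 log2 (BLM_ND over PBS_ND). Nothing in the sources says whether a shared replicate number marks a pairing. Deviations of same-numbered libraries had a median correlation of 0.0107 in fibroblasts, -0.0508 in the water, -0.0083 in the diet and 0.0254 in the BT2 experiment, which does not settle the question. In fibroblasts the correlations ran from -0.49 to 0.54, with 29 of 84 over 0.1. Those of differently numbered libraries ran more widely, from -0.56 to 0.63 (median -0.0028). Some members shared an order: Plat was lowest in replicate 2 in 7 of 8 culture groups, Timp2 in replicate 2 in 6 and Plau in replicate 3 in 6. Timp1 was lowest in replicates 1 and 3 in 4 groups each, and Plaur and Timp3 in no replicate in more than 3. This order was not computed for all genes. With the replicate block, 6 members instead of 7 passed for BLM_NW over PBS_NW, 5 instead of 6 for BLM_BCAA over PBS_NW, 4 instead of 3 for BLM_BT2 over BLM_DMSO and 3 instead of 2 for BLM_BT2 over PBS_DMSO, with equal numbers elsewhere. Depth is unknown and groups hold 3 or 4 libraries, so a small difference of a low gene such as Timp4 in lung may be missed.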
